A study of Rattus norvegicus with 12 samples.

Results

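Rsad2 and Cmpk2 are neighbouring genes of the rat genome that both encode antiviral enzymes. They are 2 of 14217 genes with a probe set of their own. All probe sets that the platform annotation gives to either gene were taken: 1 for Rsad2 (1370913_at) and 2 for Cmpk2 (1383424_at and 1393044_at), so 3 of the 31042 tested. The genes had been selected on their large differences between interferon-treated and untreated cells in these arrays, so those differences are given here as a description, without a test.

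The levels were measured on 12 Affymetrix arrays of RNA from primary hepatocytes of wistar rats, the parenchymal cells of the liver, kept briefly in culture. One day after their isolation and Percoll purification they received 250 U/ml rat interferon alpha or no addition, and RNA was taken after 3 h or 6 h. Each of the 4 groups (control 3 h, interferon alpha 3 h, control 6 h and interferon alpha 6 h) holds 3 arrays, labelled biological replicates 1 to 3. All values are the authors' log2 RMA values, so a difference of 1 is a doubling of signal. The labels do not say whether replicate numbers stand for animals, so the spread given is that between these samples.

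Type I interferons bind a receptor whose kinases activate transcription factors, among them Stat2, which acts with Irf9. Such factors recognise interferon-stimulated response elements in the promoters of antiviral genes. Rsad2 encodes viperin, a radical SAM enzyme of the endoplasmic reticulum and lipid droplets that needs an iron-sulfur cluster and converts CTP into a chain-terminating nucleotide, ddhCTP. Cmpk2 encodes a mitochondrial nucleoside monophosphate kinase that phosphorylates CMP, UMP and their deoxy forms, and so lies upstream of the CTP that viperin uses. The genes lie side by side and are induced together by interferons in many cell types.

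In the RefSeq tables of assembly GRCr8 the pair is on chromosome 6, with no other named gene that has a probe set between them. Rsad2 is read from the minus strand and Cmpk2 from the plus strand, so they point away from each other, and their start points in the promoter table are 14.7 kb apart. The stretches upstream of these start points are shown because they hold the letters of the interferon response element or of its core. The first is the part of the Rsad2 window that lies beyond the annotated end of the gene (chr6:48788246-48788370, minus strand, bases 250 to 126 before the start point). Its first capitals match the interferon-stimulated response element, here GAAANNGAAA or TTTCNNTTTC on the other strand, and its last capitals match the shorter core bound by interferon regulatory factors, AANNGAAA. The Cmpk2 stretches (chr6:48802753-48802782 and chr6:48802792-48802821, plus strand) lie 97 to 68 and 58 to 29 bases before its start point, and their capitals mark a repeated stretch that holds the AANNGAAA core on the reverse strand.
Rsad2 upstream: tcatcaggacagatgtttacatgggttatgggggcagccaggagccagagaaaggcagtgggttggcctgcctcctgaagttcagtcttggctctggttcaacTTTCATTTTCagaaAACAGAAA
Cmpk2 nearer the far end: tctgccttcacTTTCGTTTCcaggggatcc
Cmpk2 nearer the start: aatcaccgcggTTTCGTTTCcgaggcgtgg

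The letters of the full element, searched on both strands in the 250 bases before the start point, occurred in 3.41% of all 33469 promoter windows, and in that of Rsad2 but not of Cmpk2. The AANNGAAA core, which every full element also contains, occurred in 23.3% of windows and 2 or more times in 5.07%. The Rsad2 and Cmpk2 windows each held 2 copies. The repeated Cmpk2 letters, GAAACGAAA on the reverse strand, were singled out after the sequence had been read. They occurred in 30 of the 33469 windows, and in 1 window, that of Cmpk2, they occurred more than once. TATAAA occurred in 12.9% of windows and in that of Rsad2 on the strand opposite to the gene, 44 to 39 bases before its start point. G and C made up 52.0% of the Rsad2 and 65.2% of the Cmpk2 window, beside a median of 51.2%. RefSeq places the outer end of the gene 125 bases upstream of the start point used for Rsad2 and 700 bases upstream for Cmpk2, so some transcript models begin further out. A match describes letters and does not show that a factor binds.

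Rsad2 was already bright in untreated hepatocytes. Its log2 level in replicates 1, 2 and 3 was 11.06, 10.38 and 10.83 in the control arrays at 3 h and 11.52, 10.55 and 10.71 in those at 6 h. Between 704 and 1683 of the 31042 probe sets were brighter on a given control array, which put Rsad2 between the 94.6th and the 97.7th percentile. With interferon alpha it stood at 12.63, 13.90 and 13.77 at 3 h and at 13.96, 14.14 and 14.10 at 6 h. All 3 treated arrays lay above all 3 controls at both times, and replicate 1 was the lowest treated array at both.

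The Rsad2 group mean was 10.76 ± 0.34 (SD, n = 3) in controls and 13.44 ± 0.70 in treated cells at 3 h. The difference was 2.68 ± 0.34 log2 (standard error of the limma fit, which ignores replicate numbers) or 6.40-fold. At 6 h the means were 10.93 ± 0.52 and 14.07 ± 0.10, a difference of 3.14 ± 0.34 log2 or 8.80-fold. On the treated 6 h arrays, 18, 6 and 5 probe sets were brighter than Rsad2 in replicates 1 to 3, and it was 0.692, 0.547 and 0.566 log2 below the brightest probe set of its array. The treated 6 h arrays spanned from 13.96 to 14.14, a narrower range than in any other group for this gene. Whether the signal could have shown a further increase so near the top of the scale was not tested.

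Cmpk2 started from a lower place on the array. On its brighter probe set, 1383424_at, the log2 level in replicates 1 to 3 was 8.17, 7.32 and 7.03 in the control arrays at 3 h and 7.48, 6.85 and 6.46 at 6 h. With interferon alpha it was 9.09, 11.35 and 10.72 at 3 h and 11.18, 12.44 and 11.87 at 6 h. The groups did not overlap at either time, but the margin between the lowest treated and the highest control array was 0.922 log2 at 3 h and 3.70 at 6 h. Replicate 1 supplied the array on both sides of that margin, being the highest control and the lowest treated array at both times.

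The Cmpk2 mean on this probe set was 7.50 ± 0.59 (SD, n = 3) in controls and 10.39 ± 1.17 in treated cells at 3 h, a difference of 2.88 ± 0.54 log2 or 7.37-fold. At 6 h the means were 6.93 ± 0.52 and 11.83 ± 0.63, a difference of 4.90 ± 0.54 log2 or 29.9-fold. No treated Cmpk2 array reached the top of the scale: the brightest, replicate 2 at 6 h, was 2.25 log2 below the maximum of its array, with 334 probe sets above it.

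The dimmer Cmpk2 probe set, 1393044_at, gave the same picture. Its controls read 6.67, 6.09 and 5.53 at 3 h and 6.24, 5.67 and 5.18 at 6 h, close to or above the array medians of 5.16 to 5.21. Its treated arrays read 7.61, 10.11 and 9.41 at 3 h and 10.13, 11.55 and 10.89 at 6 h. The differences were 2.95 ± 0.59 log2 (7.70-fold) at 3 h and 5.16 ± 0.59 log2 (35.8-fold) at 6 h. Over the 12 arrays the brighter probe set exceeded the dimmer by 0.890 to 1.50 log2, with an SD of 0.197, and every array deviated from its group mean in the same direction on both. At 6 h the dimmer probe set had the largest difference of all 31042 and the brighter one was at rank 3, while Rsad2 was at rank 23. At 3 h they were at ranks 6, 7 and 9 in the same order. The share of all probe sets with every treated array above every control was 4.53% at 3 h and 4.29% at 6 h. These ranks and the separation restate what the genes were chosen for.

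**Figure D1:**
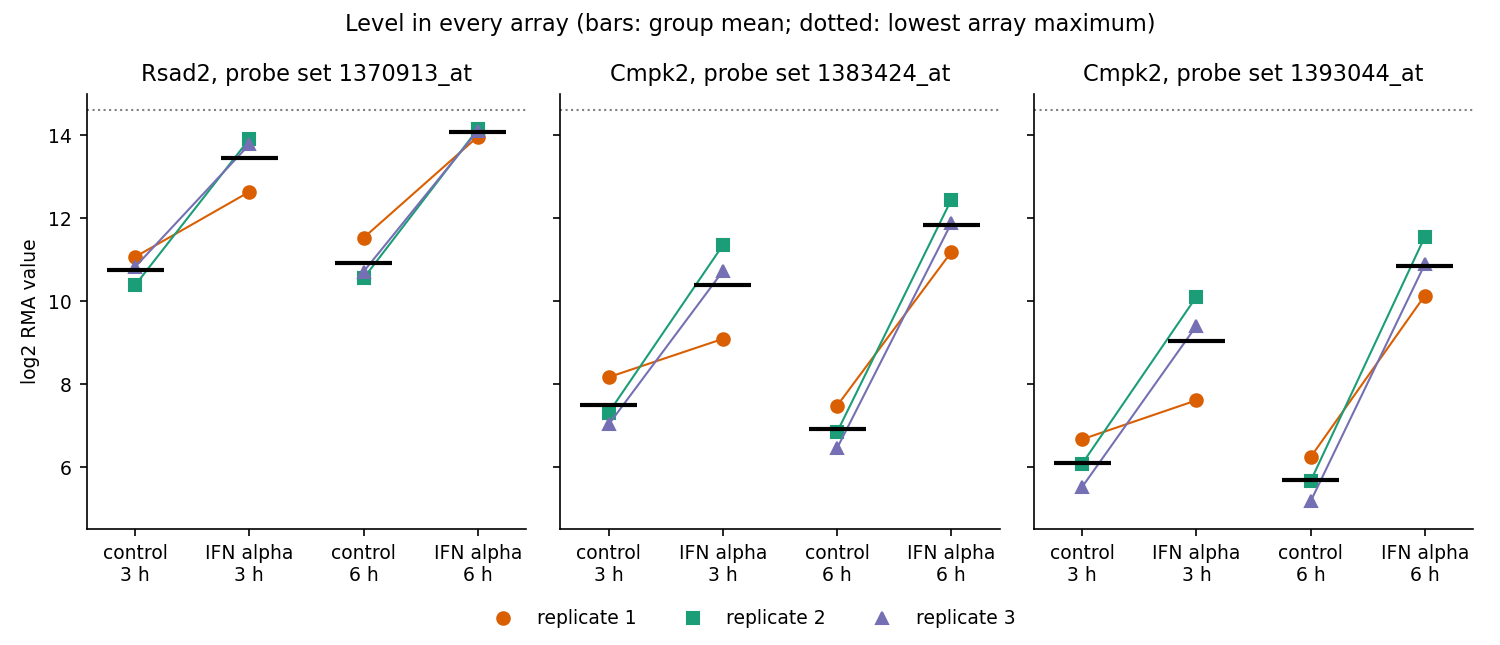
The log2 RMA value of the Rsad2 and both Cmpk2 probe sets is plotted for each of the 12 arrays, with lines joining control and interferon alpha arrays of the same replicate number and time, black bars at group means of 3 arrays, and a dotted line at the lowest array maximum. Replicate 1 has the highest control and the lowest treated value of each probe set at both times, and the Rsad2 values at 6 h with interferon alpha crowd between 13.96 and 14.14.

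Replicate 1 responded less than the others in both genes. The Rsad2 difference between treated and control arrays of the same number was 1.57, 3.52 and 2.95 log2 in replicates 1 to 3 at 3 h, and 2.43, 3.59 and 3.39 at 6 h. For Cmpk2, on the brighter probe set, it was 0.922, 4.03 and 3.69 at 3 h, and 3.70, 5.59 and 5.42 at 6 h. The SD of the 3 differences was 1.00 log2 at 3 h and 0.617 at 6 h for Rsad2, and 1.71 and 1.05 for Cmpk2. The standard errors given above come from a fit that ignores replicate numbers, so they do not measure this spread. As folds, Cmpk2 was thus 1.90-fold higher in replicate 1 at 3 h, where the other replicates stood at 16.4-fold and 12.9-fold.

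Levels of many Kupffer cell markers also stood apart in replicate 1. The labelled cell type was checked first: 11 of 12 hepatocyte markers were measured, none was below the array median, and their mean level was 13.05 to 13.30 on every array, with Alb at 14.67. Of 13 measured Kupffer cell and macrophage markers, 7 (Clec4f, Csf1r, Cd163, Cd14, C1qa, C1qb and C1qc) were highest in replicate 1 in each of the 4 groups, as were 841 of all 14217 genes (5.92%). The mean of the 13 was 6.58 to 6.65 log2 in the replicate 1 arrays and 5.64 to 5.95 in the others. Their summed signal was 12.80 to 12.93 against 12.09 to 12.58 on the log2 scale. Most of this summed signal, here and below, came from Cd14 and Lyz2, at mean levels of 11.90 and 10.54 log2. Each other marker of this list was at 6.95 or below. Of 8 endothelial markers, 3 (Pecam1, Lyve1 and Tek) were highest in replicate 1 throughout, and 7 lay below the array median on every array. Of the 11 hepatocyte markers, 3 (Apob, Cyp2e1 and Fgb) were highest in replicate 1 throughout. Of 10 lymphocyte and dendritic cell markers, 0 were, and 9 lay below the median on every array.

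The marker signal of treated and control arrays overlapped at both times. The summed Kupffer cell signal ran from 12.17 to 12.80 in the control and 12.09 to 12.80 in the treated arrays at 3 h, and from 12.32 to 12.93 and 12.36 to 12.90 at 6 h. For endothelial markers the corresponding ranges were 6.89 to 7.41 and 6.92 to 7.35, then 6.95 to 7.46 and 6.89 to 7.15. For lymphocytes and dendritic cells they were 7.45 to 7.60 and 7.48 to 7.59, then 7.54 to 7.67 and 7.54 to 7.71. By limma, 0 of these markers and 0 hepatocyte markers were called at either time. Over all genes 0.00703% were called higher at 3 h and 0.563% at 6 h. A count of 0 is thus near the background and does not show that the groups were alike. In RNA from whole cultures, more cells of a type and more RNA per cell cannot be told apart. The part of these cells in the levels of Rsad2 and Cmpk2 was not tested.

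Rsad2 and Cmpk2 deviated together among replicates. In 11 of the 12 arrays both lay on the same side of their group means, and the deviations correlated at 0.834 with the brighter and 0.794 with the dimmer Cmpk2 probe set. This is a description over 12 arrays that share their group means and replicate numbers. No such correlation is given for other genes, so it does not set the pair apart. The exception was the control 3 h array of replicate 3, where Rsad2 was 0.0672 log2 above its group mean and Cmpk2 0.474 below.

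At 6 h the difference was larger for Cmpk2 than for Rsad2 in each replicate, and at 3 h in 2 of 3. The Cmpk2 difference minus the Rsad2 difference was -0.65, 0.51 and 0.74 log2 in replicates 1 to 3 at 3 h, a mean of 0.20 ± 0.74 (SD, n = 3). At 6 h it was 1.27, 2.00 and 2.03 log2, a mean of 1.77 ± 0.43. At 3 h the mean was smaller than the spread between replicates, and it was -0.07 without the 3 h arrays of replicate 3. At 6 h the mean was larger than the spread. The 6 h values carry the limit given for Rsad2, whose treated arrays lay within 0.692 log2 of the array maximum. These values compare differences, not the levels of the genes, since probe sets of different genes have no common scale.

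From 3 h to 6 h the treated-minus-control difference of Cmpk2 grew by 2.78, 1.56 and 1.72 log2 in replicates 1 to 3 on the brighter probe set, a mean of 2.02 ± 0.77 (standard error), and by 2.95, 1.86 and 1.83 on the dimmer one. That of Rsad2 grew by 0.867, 0.0703 and 0.442 log2, a mean of 0.46 ± 0.48. Its treated arrays of replicates 2 and 3 were already 0.782 and 0.890 log2 below the array maximum at 3 h. The growth of Rsad2 thus carries the limit given for its levels near the top of the scale. Over the pairs of replicates 2 and 3 alone the growth was 0.26 log2 for Rsad2 and 1.64 for Cmpk2. Leaving only replicate 1 out of the treated 3 h group, which breaks its pair, gave 0.06 and 1.37. The treated arrays alone were 0.63 ± 0.34 log2 higher at 6 h than at 3 h for Rsad2 and 1.44 ± 0.54 for Cmpk2.

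Untreated culture gives a comparison for which the genes were not chosen. Between 3 h and 6 h without interferon, Cmpk2 was lower in all 3 replicates, by 0.69, 0.47 and 0.57 log2 on the brighter probe set and by 0.43, 0.42 and 0.35 on the dimmer one. The mean change of -0.58 ± 0.54 log2 and of -0.40 ± 0.59 did not pass (adjusted p = 0.811 and 0.905 by limma, 0.574 and 0.732 with the replicate number as a block). Both fits pool the spread of all 4 groups, treated arrays included, so these standard errors exceed the spread of the 3 changes. The control arrays alone were not fitted as pairs, and not passing does not show that the level was unchanged. Rsad2 was 0.46 and 0.17 log2 higher in replicates 1 and 2 and 0.12 lower in replicate 3. Its mean change of 0.17 ± 0.34 log2 did not pass either (adjusted p = 0.942, 0.838 with the block), and it turned to -0.13 when replicate 1 was left out of the 6 h controls and to -0.02 when replicate 2 was left out of the 3 h controls. Over all probe sets 59 changed in this comparison, 0.19%, and 2529 with the block, 8.15%.

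**Figure D2:**
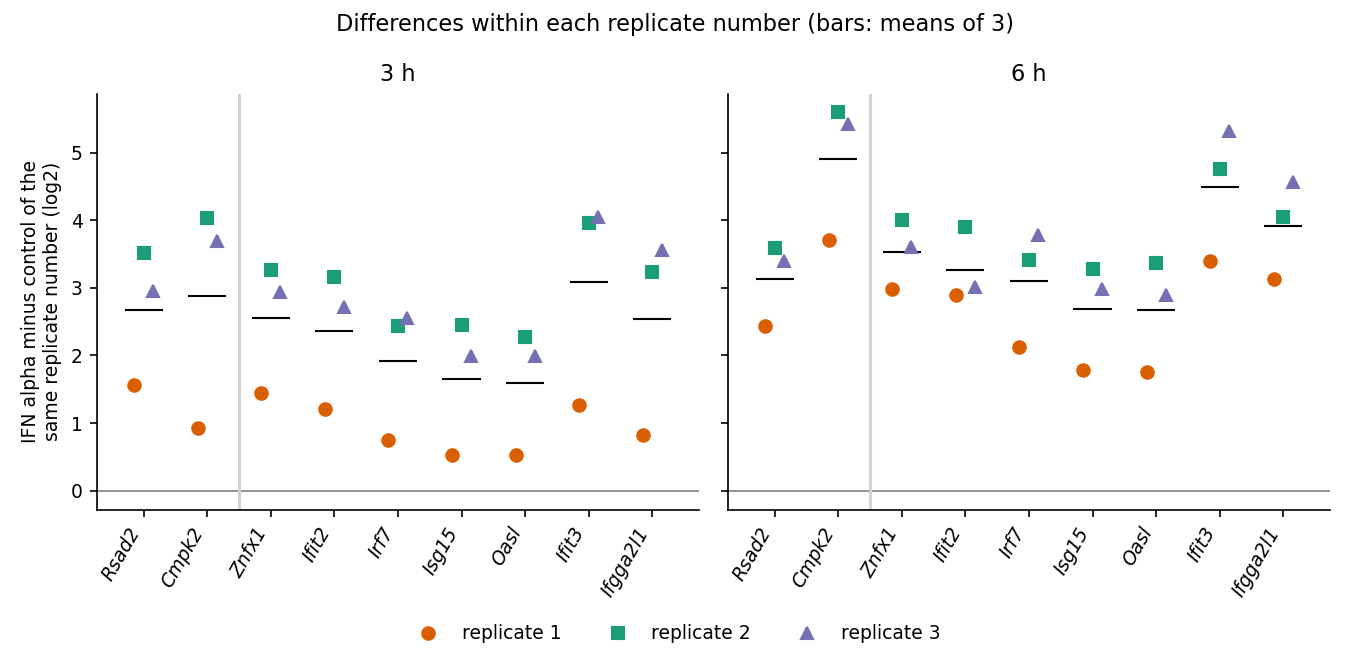
Each point is the interferon alpha array minus the control array of the same replicate number, in log2, for Rsad2, Cmpk2 (brighter probe set) and the 7 genes with the most similar profiles, at 3 h (left) and 6 h (right), with bars at the mean of the 3. Replicate 1 gives the lowest point for each of the 9 genes at both times, but the 7 were picked for likeness over these same arrays. Cmpk2 moves up between the panels by more than Rsad2, whose treated 6 h arrays lay within 0.692 log2 of the array maximum.

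The genes whose profile over the 12 arrays was most like that of Rsad2 were other interferon-stimulated genes. Likeness was measured as the root mean square difference between 12 values centred on their own mean, over 13983 genes. The closest to Rsad2 were Znfx1, an RNA helicase with antiviral activity (0.271 log2), and Ifit2, an RNA-binding antiviral protein (0.295). Irf7, a transcription factor of the interferon response (0.366), the ubiquitin-like modifier Isg15 (0.438) and Oasl, an antiviral relative of the oligoadenylate synthetases (0.439), followed. Znfx1 had differences of 2.55 log2 at 3 h and 3.53 at 6 h, beside 2.68 and 3.14 for Rsad2.

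The closest to Cmpk2 was Ifit3, a partner of other Ifit proteins in binding viral RNA, at 0.258 log2. Its differences of 3.09 log2 at 3 h and 4.49 at 6 h lay close to the 2.88 and 4.90 of Cmpk2, and like Cmpk2 it was lowest in replicate 1, at 1.27 and 3.40. Likeness was measured on these same arrays, so such matches, here and for Znfx1, restate how the genes were picked. Ifgga2l1, an interferon-inducible GTPase (0.549), Znfx1 (0.598), Ifit2 (0.700) and Rsad2 itself (0.731) came next. Rsad2 was thus the fifth closest gene to Cmpk2, whereas Cmpk2 ranked 25th for Rsad2. The dimmer Cmpk2 probe set was 0.189 from the brighter one.

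Response element letters also occurred upstream of some of these look-alikes. The promoter table held 5 of the 7 genes other than the pair, and 3 of the 5 windows (Irf7, Ifit3 and Ifgga2l1) had the full element, beside 3.41% of all windows. Stretches of 30 bases from the windows of Irf7 (chr1:205800063-205800092, minus strand) and Ifit3 (chr1:241527272-241527301, plus strand) are shown for comparison, with the matches in capitals. Irf7 joined within 30 bases the element letters found upstream of Rsad2 to the letters repeated upstream of Cmpk2.
Irf7: TTTCATTTTCccgagacgcagTTTCGTTTC
Ifit3: tttaagtctgTTTCAGTTTCtagtttccac

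Whether the difference extended beyond the pair along the chromosome was tested on genes set by position alone. The 5 nearest named genes with a probe set on the Rsad2 side were Rnf144a, Id2, Kidins220, Cys1 and Klf11, and on the Cmpk2 side Sox11, Colec11, Rnaseh1, Adi1 and Trappc12. Of their 16 probe sets, 0 changed at 3 h and 0 at 6 h by limma, with and without the replicate block. At an unadjusted p under 0.05 the counts were 0 at both times, and 2 at 3 h and 0 at 6 h with the block, where 6.75% and 8.18% of all probe sets passed. Over all probe sets, 0.00644% were called at 3 h and 0.387% were called higher at 6 h, and with the block 0.0934% and 1.06% were called higher, so few calls among 16 would be found in any region.

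The size of these values says more than the count of calls. The 16 differences ran from -0.31 to 0.13 log2 at 3 h and from -0.20 to 0.13 at 6 h. Their median was -0.02 at both times, beside -0.01 at 3 h and -0.02 at 6 h over all probe sets. Rnf144a, a ubiquitin ligase and the nearest measured neighbour of Rsad2, was at -0.09 ± 0.19 log2 at 6 h on its brightest probe set. Sox11, a developmental transcription factor next on the Cmpk2 side, was at 0.07 ± 0.15 and at 3.62 log2 in the controls, under the lower quartile of every array (3.84 to 3.93), so a fall might not show. Id2, an inhibitor of helix-loop-helix factors, was at -0.02 ± 0.33, and Colec11, a collectin of the complement system, at -0.10 ± 0.24. In the 6 h controls Colec11 and Cys1 had means of 4.64 and 3.88 log2, and the dimmer Rnf144a probe sets 4.19 and 4.85. These also lay below the array medians of 5.16 to 5.21, where a fall might be missed. None of the 10 windows upstream of these genes held the full response element, beside 3.41% of all windows, so this is near the background. The AANNGAAA core occurred in 2 of the 10, those of Sox11 and Trappc12, beside 23.3% of all windows.

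**Figure D3:**
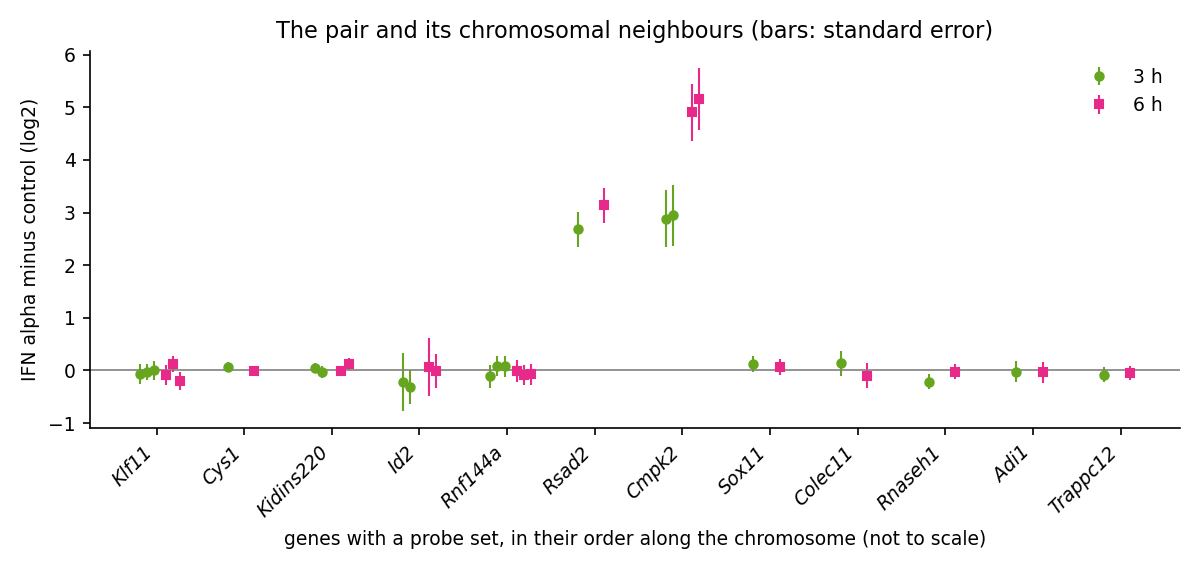
The interferon alpha minus control difference in log2, with its standard error, is plotted at 3 h and 6 h for every probe set of the pair and of the 5 nearest measured genes on each side, in chromosomal order and not to scale. The 16 probe sets of the neighbours lie between -0.31 and 0.13, and those of Rsad2 and Cmpk2 between 2.68 and 5.16.

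Some of the genes that carry the interferon signal were higher with interferon alpha at 6 h. Of 12 measured genes for the interferon receptor, its kinases, transcription factors and brakes, 4 rose at 6 h, 0 fell and 8 did not pass by limma, and 5 rose with the replicate block. Over all 14217 genes 0.563% were called higher at 6 h and 1.45% with the block, and at 3 h 0.00703% and 0.106%. The median difference of the list was 0.14 log2, beside -0.02 over all genes. Irf7 rose by 3.11 ± 0.36 log2 (adjusted p = 0.00325), Usp18, a brake on the receptor, by 2.21 ± 0.35 (0.0199) and Stat2 by 1.51 ± 0.21 (0.00981). Irf9, named because it is the remaining call, rose by 1.20 ± 0.19 (0.0209). The count dropped to 1 when replicate 2 was left out of the 6 h controls, when replicate 2 or 3 was left out of the treated 6 h group, and when the 3 h arrays were left out altogether.

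Irf1, a transcription factor that also binds response elements and was singled out after its values were seen, was the single gene of the list called at 3 h, with the block across times alone, and no list gene was called at 3 h with the block within each time. Its difference was 2.24 ± 0.42 log2 at 3 h (adjusted p = 0.322 by limma, 0.0218 with the block) and 2.22 ± 0.42 at 6 h (0.0608, 0.00203 with it). With the block its standard error was 0.29. Ifnar1, Ifnar2, Jak1, Tyk2, Irf3, Prdm1 and Socs1 were not called at either time in either fit, and lay between -0.13 and 0.18 log2 at 6 h.

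Cmpk1, the cytosolic counterpart of Cmpk2, differed by 0.04 ± 0.12 log2 at 6 h, and Nme2, a nucleoside diphosphate kinase, by -0.03 ± 0.08. They are the brightest of the 27 measured nucleotide kinases and genes of pyrimidine supply, of which 0 were called at 3 h or 6 h by limma, with or without the block. Read against the shares of all genes given above, 0 of 27 is near the background and sets these genes apart in no way. At an unadjusted p under 0.05, 0 passed without the block, and 1 at 3 h and 2 at 6 h with it. Over all genes 2.71% passed at 3 h and 3.68% at 6 h, and 6.78% and 8.67% with the block. Their differences at 6 h ran from -0.41 to 0.07 log2, with a median of -0.02, the same as that of all genes.

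Nucleotide breakdown held 3 genes that were called higher than control at 6 h with the replicate block. Of 14 measured genes for breakdown and control of deoxynucleotide pools, 0 were called without the block at either time, and 0 at 3 h and 3 at 6 h had an unadjusted p under 0.05 (2 and 3 with the block). The 3 blocked calls of 14 stand beside 1.45% of all genes, and the 0 without the block at 6 h beside 0.563%. For the unadjusted counts the shares of all genes were 2.71% at 3 h and 3.68% at 6 h, and 6.78% and 8.67% with the block. The blocked calls at 6 h, named after their values were seen, were Samhd1, a phosphohydrolase of deoxynucleotide triphosphates, Nt5c3a, a pyrimidine nucleotidase, and Upp1, uridine phosphorylase. Samhd1 differed by 1.98, 3.08 and 2.37 log2 in replicates 1 to 3, a mean of 2.48 ± 0.51 (adjusted p = 0.0947 by limma, 0.000281 with the block). Nt5c3a differed by 1.09, 2.06 and 1.12 log2, a mean of 1.42 ± 0.29 (0.0885, 0.00149 with the block). Upp1 differed by 0.671, 0.662 and 0.491 log2, a mean of 0.61 ± 0.27 (1.00, 0.00445 with the block). With the block their standard errors were 0.21, 0.18 and 0.09 in that order. The treated mean of Upp1 was 6.38 log2 at 3 h and 6.46 at 6 h, and its control mean 6.33 and 5.85. Its 6 h difference thus went with lower controls at 6 h. That change in untreated culture was -0.48 ± 0.27 log2 (adjusted p = 0.625 by limma, 0.00921 with the block). The list median was -0.01 log2 at 6 h. Upb1 and Nt5c2, the brightest of the list, were at -0.00 ± 0.21 and -0.02 ± 0.57.

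For genes around viperin, and for those of mitochondrial DNA synthesis and the inflammasome, the list medians at 6 h lay between -0.11 and -0.02 log2. The lists of 20 iron-sulfur cluster assembly genes, 6 other radical SAM enzymes, 12 reported partner proteins of viperin, and 11 genes of mitochondrial DNA synthesis and the inflammasome had 0 calls by limma at both times, with and without the block, beside 0.563% and 1.45% of all genes called higher at 6 h. Their median differences at 6 h were -0.05, -0.02, -0.03 and -0.11 log2. At an unadjusted p under 0.05 without the block, 0 genes passed except 1 at 6 h in the last list. With it, 1 partner gene passed at 3 h, as did 1 gene of the last list at 3 h and 4 at 6 h, where 8.67% of all genes passed. The cluster scaffold Iscu was at -0.00 ± 0.09 log2 and the mitochondrial chaperone Hspa9 at -0.05 ± 0.09. Lias, the lipoate synthase, was at -0.02 ± 0.11 and Elp3, a tRNA modifying enzyme, at 0.05 ± 0.10. Fdps, the farnesyl diphosphate synthase that viperin has been reported to bind, was at -0.03 ± 0.08 and the lipid droplet coat protein Plin2 at 0.04 ± 0.20. In the last list Txnip, which binds thioredoxin, was at -0.05 ± 0.38 and Ssbp1, which coats single-stranded mitochondrial DNA, at -0.11 ± 0.10. Pycard, named after its values were seen, had the largest difference of that list, 0.58 ± 0.67. Nlrp3 of the same list was not measured.

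**Figure D4:**
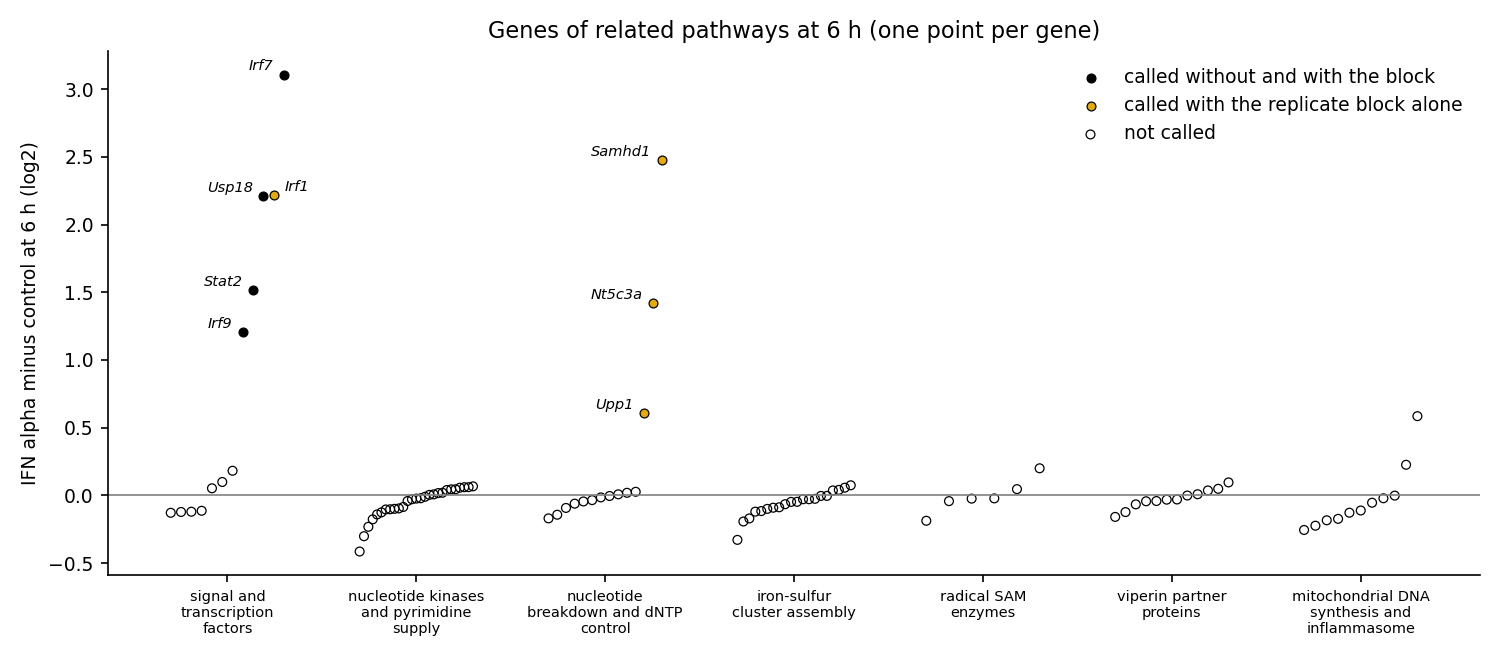
Each point is 1 gene (brightest probe set) of 7 lists around the pair, placed by its interferon alpha minus control difference at 6 h in log2 and sorted within its list. Filled black points passed limma at an adjusted p under 0.05 without and with the replicate block, yellow points with the block alone. Calls are found among signalling genes and, with the block, among nucleotide breakdown genes.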

How the data were processed

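The authors deposited log2 values for each probe set. Per the submitters' processing notes, they used affy (R 2.10.0) and RMA. RMA equalizes signal distributions between arrays, so a shift of nearly all transcripts would not show. The probe set definition: not given in the sources used here.

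After leaving out 57 control probe sets, 31042 entered limma 3.58.1 (lmFit, eBayes; R 4.3.3) as 1 fit of 4 groups and 12 arrays with 8 residual degrees of freedom, two-sided, with Benjamini-Hochberg adjustment over all 31042. Calls needed an adjusted p under 0.05. Precision is limited by having 3 arrays per group. Array medians ran from 5.16 to 5.21 log2, correlations between arrays from 0.979 to 0.997, and 0 pairs were identical.

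The platform annotation gave 20826 probe sets a single symbol, 436 several and 9780 none, for 14217 genes, and a gene stands on its probe set with the highest mean. Sequences came from RefSeq's GRCr8 tables. Both members and all 10 neighbours were matched by symbol.

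Deviations from group means correlated at 0.479 to 0.829 between arrays of the same replicate number, for all 18 such pairs, so the numbers pair the arrays, and the fit with them as a block has 6 residual degrees of freedom. Correlations were -0.652 to -0.0747 between different numbers.

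The members, lists and rules were chosen with earlier results of these data known. Named were the members, the 5 nearest measured neighbours on each side, the 5 most similar profiles per member, and per list up to 3 genes called at 6 h, by size, or else the 2 brightest. Other genes are said to be named after their values were seen. The lists hold 13, 28, 18, 24, 7, 12 and 12 genes in the order of the report, of which 12, 27, 14, 20, 6, 12 and 11 were measured. The fits were tested on simulated arrays.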

Additional observations from a re-analysis of the deposited data

Results flagged for a closer look

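Dtymk, the thymidylate kinase, and Vapa, an endoplasmic reticulum membrane protein among the viperin partners, had opposite signs at 3 h and 6 h in every replicate. The Dtymk difference was -0.33, -0.22 and -0.09 log2 at 3 h and 0.10, 0.06 and 0.03 at 6 h, a change of 0.28 log2. The Vapa difference was 0.02, 0.08 and 0.05 log2 at 3 h and -0.000412, -0.06 and -0.13 at 6 h, a change of -0.11 log2. The share of all genes with such a change of sign is not given here, so these flags are not read as a result. The change between times did not pass for either gene by limma (adjusted p = 1.00 for both).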

How the results depend on the processing

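The interferon alpha differences of Rsad2 and Cmpk2 are differences of group means. The blocks, limma-trend, the filter and the fits of a single time leave such differences unchanged, so they do not test them. Quantile normalization gave 2.65 and 3.15 log2 for Rsad2 at 3 h and 6 h, and 2.94 and 4.89 for Cmpk2. Averaging the probe sets of a gene gave 2.91 and 5.03 for Cmpk2. Leaving out single arrays gave 2.44 to 3.08 log2 for Rsad2 and 2.40 to 3.53 for Cmpk2 at 3 h, and 2.95 to 3.44 and 4.60 to 5.23 at 6 h. The growth from 3 h to 6 h then ran from 0.0574 (without the treated 3 h array of replicate 1) to 0.76 log2 for Rsad2 and 1.37 to 2.50 for Cmpk2. The Cmpk2 minus Rsad2 difference ran from -0.0656 to 0.63 at 3 h and 1.64 to 2.02 at 6 h, and the Rsad2 change in untreated culture from -0.13 to 0.36. With the replicate block across times, list genes called numbered 1 at 3 h and 8 at 6 h (0 and 4 without it), and with the block within each time 0 at 3 h and 9 at 6 h. Calls over all probe sets were 30 at 3 h, 340 at 6 h and 2529 in untreated culture with the block across times (2, 120 and 59 without it), and 10 and 341 with the block within each time. Limma-trend gave 1 at 3 h and 8 in untreated culture, and the filter on low values 1 and 38. With only the arrays compared the counts were 0 at 3 h, 69 at 6 h and 2 in untreated culture, and list genes called at 6 h numbered 1. Without single arrays they ran from 0 to 23, from 56 to 124 and from 2 to 16, and list genes called at 6 h from 1 to 5. The block within each time called 1 gene of the mitochondrial DNA and inflammasome list at 6 h. Beside these and the genes named with it, the block changed no other call given here. The causes were not tested. Signals near the lower quartile limit what a low probe set can show.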
